A study of Rattus norvegicus with 93 samples.

Results

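Kinesins, centromere proteins and regulators of mitosis were followed in the bone marrow of rats given topotecan, oxaliplatin or both. The genes were taken by name: symbols that open with Kif and a digit, Cenp and a letter, Ncap, Bub1 or Aurk, and 16 further fixed symbols from Plk1 and Ccnb1 to Nuf2 and Ndc80. Each gene was represented by the probe set of highest mean over all 93 arrays. That gave 53 genes of the 7810 measured with a probe set of 1 symbol. Of the 16 fixed symbols 13 were measured in this way, and Tpx2, Anln and Ndc80 were not. The deposited table had already passed a filter of the authors that keeps probe sets whose probes vary together over these arrays, so the 53 genes are those that passed it. By role, 46 of them were counted as acting mainly in mitosis. The other 7 were set apart and are called non-mitotic below. They are the transport motors Kif13a, Kif16b, Kif3a and Kif5b, the microtubule depolymerase Kif2a, the centriole protein Cenpj and Aurkaip1. This grouping does not say that they have no part in mitosis.

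Each of the 93 male Sprague-Dawley rats, 8 weeks old, received a pair of consecutive intravenous infusions, and marrow was flushed from the left femur 1, 6 or 24 h after the second. Topotecan, which traps topoisomerase I on DNA, was given at 4.7 mg/kg in saline (NaCl), and oxaliplatin, a platinum drug that binds DNA, at 15 mg/kg in dextrose in water (D5W). Group names give the first infusion and then the second. Topotecan alone was given first (topotecan/D5W) or second (D5W/topotecan), and oxaliplatin alone likewise (oxaliplatin/NaCl, NaCl/oxaliplatin). The combination was given in both orders (topotecan/oxaliplatin, oxaliplatin/topotecan). Vehicle rats received NaCl/D5W or D5W/NaCl. Each of these 8 groups held 4 rats at each time, with 3 in topotecan/D5W at 24 h, oxaliplatin/NaCl at 6 h and D5W/NaCl at 24 h. A drug given in the first infusion had been in the animal for longer at sampling than a drug given in the second. Each treatment was set against the vehicle that shared its order of solvents, so topotecan/D5W, NaCl/oxaliplatin and topotecan/oxaliplatin shared the NaCl/D5W rats, and the other 3 treatments shared the D5W/NaCl rats.

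A dividing cell makes most of the proteins considered here late in its cycle. Cyclin B and Cdk1 start mitosis, Plk1 and the Aurora kinases drive spindle assembly, condensins compact the chromosomes, and kinetochores built on the CENP proteins of the centromere attach them to the spindle. Mitotic kinesins move chromosomes and spindle fibres, and Cdc20 starts their separation. Marrow is among the tissues with the most dividing cells, chiefly red cell and granulocyte precursors. Many of these genes are known to be held down outside G2 and mitosis through a promoter element called CHR, of sequence TTTGAA, which binds the DREAM complex and acts with CCAAT boxes that bind NF-Y.

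The promoters of 7 members are shown as examples, and not as a sample of the motifs. Plk1, Cdk1, Ccnb2, Cdc20 and Kif23 fell after every treatment by 24 h, Gtse1 rose at 1 h, and Cenpx fell in no treatment at 24 h. Each window runs 5′ to 3′ on the strand of the gene, from 150 bases before the annotated start to 30 bases after it, in RefSeq's rat assembly GRCr8. Capitals mark TTTGAA and CCAAT, or ATTGG where CCAAT lies on the other strand.
Plk1 (chr1:186147508-186147687, plus strand): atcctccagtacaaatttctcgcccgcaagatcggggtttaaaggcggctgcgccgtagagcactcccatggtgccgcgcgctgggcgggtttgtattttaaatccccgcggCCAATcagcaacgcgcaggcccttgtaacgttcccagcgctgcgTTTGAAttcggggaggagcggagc
Cdk1 (chr20:19265143-19265322, plus strand): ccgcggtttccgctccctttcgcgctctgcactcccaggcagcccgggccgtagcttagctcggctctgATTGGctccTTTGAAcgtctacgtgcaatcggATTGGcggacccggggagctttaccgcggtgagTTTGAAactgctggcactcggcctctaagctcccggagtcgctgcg
Ccnb2 (chr8:79981629-79981808, minus strand): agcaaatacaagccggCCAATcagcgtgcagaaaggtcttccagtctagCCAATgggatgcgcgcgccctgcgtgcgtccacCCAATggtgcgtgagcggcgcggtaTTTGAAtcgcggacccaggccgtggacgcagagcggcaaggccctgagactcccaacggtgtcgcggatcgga
Cdc20 (chr5:137255770-137255949, minus strand): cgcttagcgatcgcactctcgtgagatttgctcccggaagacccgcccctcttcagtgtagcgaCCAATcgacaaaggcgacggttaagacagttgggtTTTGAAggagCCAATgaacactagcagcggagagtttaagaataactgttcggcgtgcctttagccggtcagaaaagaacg
Kif23 (chr8:71320555-71320734, minus strand): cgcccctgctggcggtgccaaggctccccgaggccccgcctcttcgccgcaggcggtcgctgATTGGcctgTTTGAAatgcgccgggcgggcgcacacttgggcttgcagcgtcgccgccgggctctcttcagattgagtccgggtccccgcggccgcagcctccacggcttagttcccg
Gtse1 (chr7:118830023-118830202, plus strand): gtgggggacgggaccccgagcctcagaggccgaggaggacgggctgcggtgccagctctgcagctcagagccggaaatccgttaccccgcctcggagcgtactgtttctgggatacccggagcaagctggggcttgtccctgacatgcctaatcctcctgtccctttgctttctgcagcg
Cenpx (chr10:106492608-106492787, minus strand): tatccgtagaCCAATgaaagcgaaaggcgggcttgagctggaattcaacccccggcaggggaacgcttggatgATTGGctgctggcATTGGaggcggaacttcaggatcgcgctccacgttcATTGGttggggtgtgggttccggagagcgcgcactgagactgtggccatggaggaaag
The start itself is position 1. TTTGAA began at position 7 in Plk1, at -72 and -16 in Cdk1, at -43 in Ccnb2, at -51 in Cdc20 and at -79 in Kif23. The Gtse1 window held neither motif, and that of Cenpx held 4 CCAAT motifs and no TTTGAA. In the longer windows of 250 bases before to 50 after the start, 48 of the 53 members had an entry, 42 of them mitotic. TTTGAA, searched on both strands, was present in 20 of these 42 windows (47.6%), against 18.1% of the windows of all 27457 genes with an entry. It was absent from those of Ccnb1, Aurka, Bub1, Cenpe, Kif11 and Kif20a, which were also called lower in every treatment at 24 h. CCAAT, searched in the same way, was present in 23 of 42 (54.8%), against 37.7% of all. Both were present in 14 of 42 (33.3%), against 7.25% of all, and neither in 13 of 42. Among the 6 non-mitotic members with an entry, 0 held TTTGAA and 2 held CCAAT. The motifs share no bases, and a match of letters is a description of the window only.

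Values were log2 signals on which a difference of 1 is a 2-fold change. They can understate large changes, and levels were compared only within a gene. A gene was called changed at an adjusted p under 0.01 in limma (Benjamini-Hochberg over all 12532 probe sets tested), and the share of all 12532 probe sets called in the same direction is given as the background of each count. Vehicle marrow carried the red cell markers of its labelled tissue: the mean of the 15 erythroid markers lay between 12.72 and 13.08 log2 units in every vehicle rat. Skeletal muscle markers stood more than 2 log2 units above the median of all arrays in 3 arrays, 1 of topotecan/oxaliplatin at 6 h and 2 of oxaliplatin/NaCl at 24 h, and no count below moved by over 1.5 times without them. In bulk marrow, fewer dividing cells and less mRNA in each dividing cell cannot be told apart. At 1 and 6 h the sample codes in the labels of both combinations, D5W/topotecan and NaCl/oxaliplatin differ from those of the vehicles in a part whose meaning is not stated, and it cannot be told apart from treatment. At 24 h the codes of D5W/topotecan and oxaliplatin/topotecan likewise share no value of it with D5W/NaCl, while those of NaCl/oxaliplatin and topotecan/oxaliplatin overlap in part with NaCl/D5W.

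**Figure D1:**
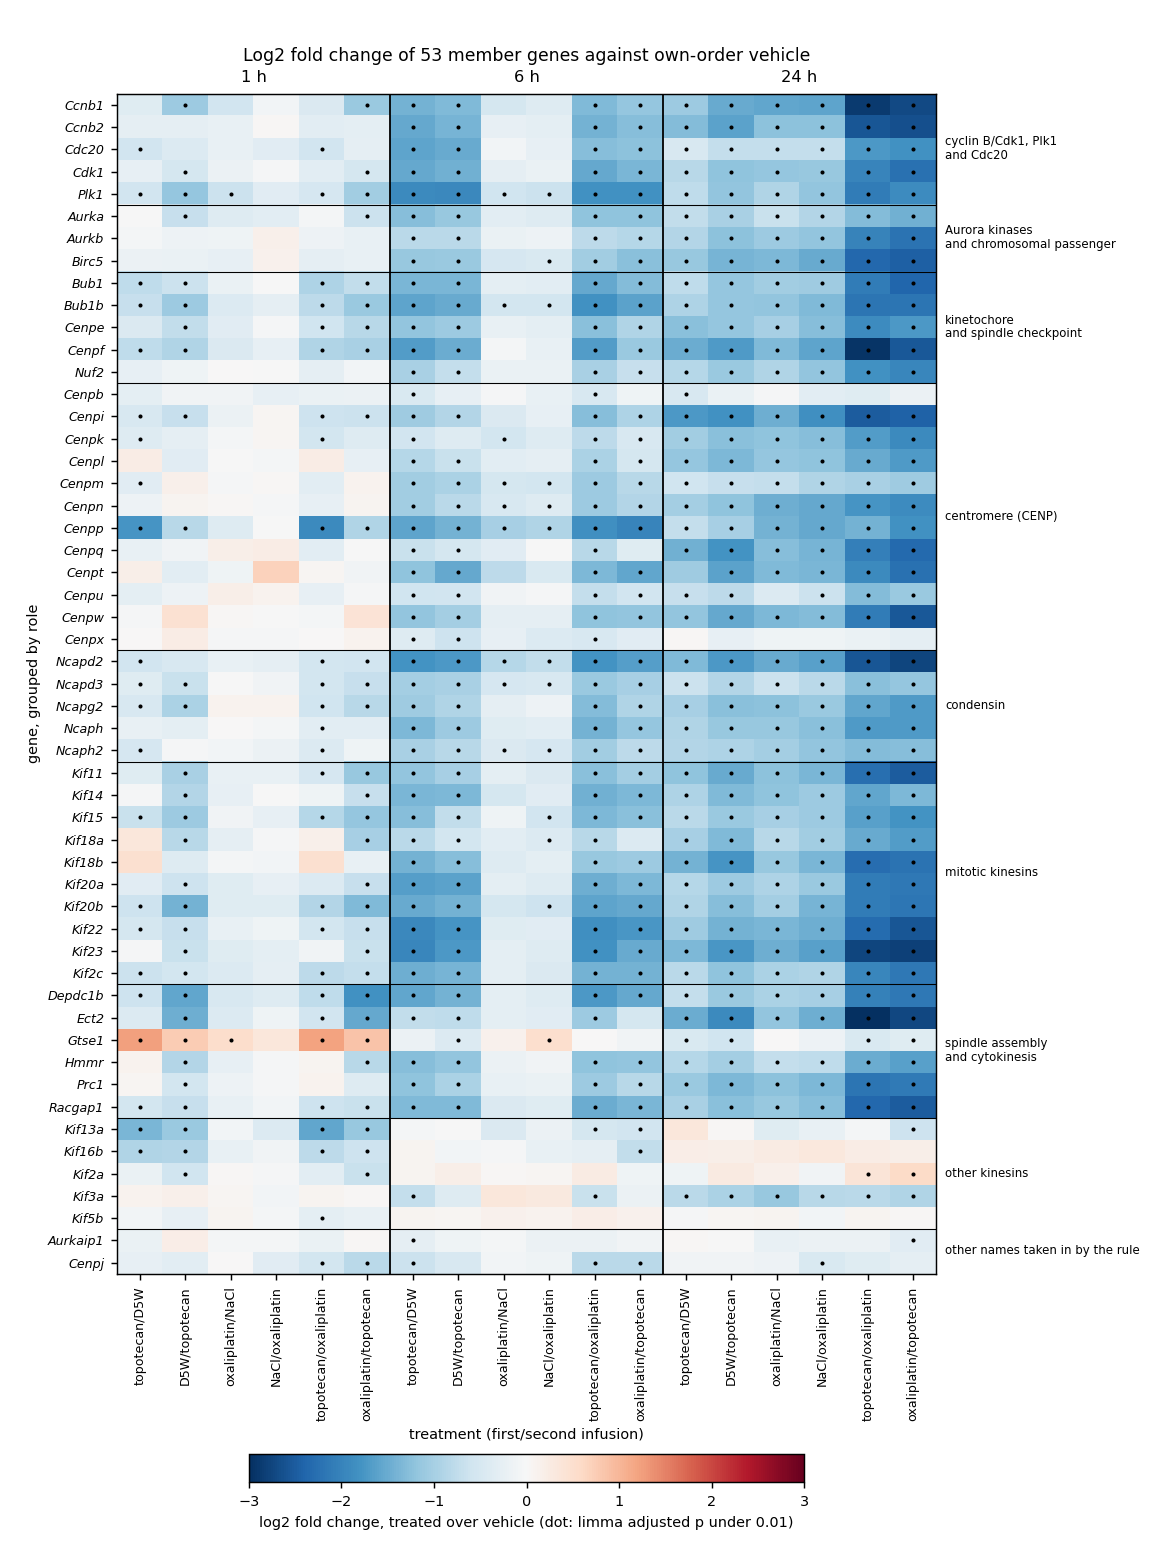
Log2 fold change of the 53 members (rows, grouped by role) in 6 treatments at 1, 6 and 24 h (columns) over own-order vehicle, blue being lower and red higher in treated rats. A dot marks an adjusted p under 0.01 in limma. Most mitotic members were called lower from 6 h in the 4 groups given topotecan and at 24 h in the groups given oxaliplatin alone, where 9 and 12 of 46 were called at 6 h. Gtse1 was higher at 1 h.

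At 1 h after topotecan, kinetochore, kinesin and condensin genes were already partly lower, and Gtse1 was higher. In topotecan/D5W 19 of the 46 mitotic members were lower and 1 was higher (background 26% lower and 9.18% higher), with a median log2 fold change of -0.34. In D5W/topotecan 26 were lower and 1 higher (background 19.5% and 7.67%), with a median of -0.58. The combination gave 22 lower in topotecan/oxaliplatin (background 32.9%, median -0.36) and 26 in oxaliplatin/topotecan (background 27.6%, median -0.65), each with 1 higher (background 9.77% and 7.21%). These medians stand beside medians over all probe sets of -0.09, -0.04, -0.14 and -0.13 in the same 4 comparisons. Genes of DNA replication and the non-mitotic members were partly lower at 1 h too, as given below.

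Oxaliplatin alone gave few calls among these genes at 1 h. The medians over the 46 were -0.21 in oxaliplatin/NaCl and -0.05 in NaCl/oxaliplatin, and over all probe sets -0.01 and -0.04. In oxaliplatin/NaCl only Plk1 was lower and only Gtse1 higher (background 0.654% and 0.575%). In NaCl/oxaliplatin 0 of 46 were called in limma in either direction (background 0.0239% lower, 0.136% higher), 0 with a trended and robust prior, and 7 lower and 2 higher at an unadjusted p under 0.05. Plk1, the polo-like kinase that promotes entry into mitosis, read 11.01, 11.03, 11.04 and 11.17 in oxaliplatin/NaCl rats, against 11.73, 11.61, 11.76 and 11.73 in D5W/NaCl rats. All 4 treated rats lay below all 4 vehicle rats, and the difference was -0.64 ± 0.14 (SE, limma adjusted p 0.0044). The call was lost when any of 6 of these 8 rats was left out. The highest fold change after oxaliplatin alone at 1 h was that of Cenpt, a protein that joins the inner to the outer kinetochore. Its values were 9.83, 10.00, 9.34 and 10.01 in NaCl/oxaliplatin rats and 10.01, 9.73, 8.26 and 8.41 in NaCl/D5W rats. The groups overlapped, 2 vehicle rats being low, and the difference of 0.69 ± 0.33 (SE) did not pass the test (limma adjusted p 0.33).

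Gtse1, a microtubule-binding protein of G2 and mitosis that also restrains p53, moved against its companions at 1 h. It read 11.34, 11.26, 11.52 and 11.43 in topotecan/D5W rats and 11.32, 11.33, 11.45 and 11.31 in topotecan/oxaliplatin rats, against 10.13, 10.28, 10.06 and 10.16 in NaCl/D5W rats. In the other order it read 10.93, 11.04, 10.82 and 11.27 in D5W/topotecan rats and 11.12, 11.03, 11.18 and 11.09 in oxaliplatin/topotecan rats, against 10.17, 10.25, 10.30 and 10.31 in D5W/NaCl rats. Every rat given topotecan lay above every vehicle rat. The differences were 1.23 ± 0.08 in topotecan/D5W, 1.20 ± 0.08 in topotecan/oxaliplatin, 0.76 ± 0.11 in D5W/topotecan and 0.85 ± 0.11 in oxaliplatin/topotecan (SE, largest limma adjusted p 4.144e-07). After oxaliplatin alone the rise was smaller, 0.53 ± 0.11 in oxaliplatin/NaCl (limma adjusted p 0.0023) and 0.34 ± 0.08 in NaCl/oxaliplatin (limma adjusted p 0.039, not called). At 6 h Gtse1 was higher only in NaCl/oxaliplatin, at 0.49 ± 0.08 (limma adjusted p 2.787e-05), and it was lower in D5W/topotecan (-0.41, limma adjusted p 0.0022). At 24 h it was lower in the 4 groups given topotecan, by 0.37 to 0.59, and was not called after oxaliplatin alone (0.00 in oxaliplatin/NaCl and -0.14 in NaCl/oxaliplatin).

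The deepest early fall was that of Cenpp, a member of the constitutive centromere-associated network. It read 7.13, 7.26, 6.99 and 6.61 in topotecan/D5W rats, against 9.11, 8.86, 8.48 and 8.59 in NaCl/D5W rats. No treated rat came within 1 log2 unit of a vehicle rat, and the difference was -1.76 ± 0.13 (SE, limma adjusted p 8.48e-14). In topotecan/oxaliplatin it was -1.92 ± 0.13 (limma adjusted p 5.204e-15). Cenpp was also the lowest member after oxaliplatin alone at 6 h, at -0.99 ± 0.14 in oxaliplatin/NaCl (limma adjusted p 1.713e-06), and after the combination at 6 h, at -1.98 ± 0.13 in oxaliplatin/topotecan (limma adjusted p 3.078e-15). Among roles at 1 h, 4 of the 5 kinetochore and checkpoint genes and 9 of the 10 mitotic kinesins were lower in D5W/topotecan. There 2 of the 12 CENP genes of the centromere were lower (background 19.5% for each). In topotecan/D5W they were 3 of 5, 4 of 10 and 4 of 12 (background 26%). Both CENP counts stand near their backgrounds, and a difference between roles was not tested. In topotecan/oxaliplatin all 5 condensin genes were lower (background 32.9%).

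By 6 h nearly every mitotic member was called lower in the groups given topotecan, and 9 and 12 of the 46 after oxaliplatin alone, where the falls were smaller. The counts lower were 45 of 46 in topotecan/D5W (background 25.6%), 44 in D5W/topotecan (20.4%), 45 in topotecan/oxaliplatin (27.6%) and 40 in oxaliplatin/topotecan (27.5%). More than 2-fold lower were 34 members in topotecan/D5W (background 3.37%), 27 in D5W/topotecan (2.68%), 36 in topotecan/oxaliplatin (4.16%) and 28 in oxaliplatin/topotecan (4.68%). The medians over the 46 were -1.24 in topotecan/D5W, -1.10 in D5W/topotecan, -1.27 in topotecan/oxaliplatin and -1.16 in oxaliplatin/topotecan. After oxaliplatin alone 9 were lower in oxaliplatin/NaCl (background 7.25%, median -0.30) and 12 lower and 1 higher in NaCl/oxaliplatin (background 9.69% and 5.54%, median -0.35), and 0 fell more than 2-fold in either (background 0.583% and 0.375%). Without regard to the test, every treated rat lay below every vehicle rat for 26 of the 46 in oxaliplatin/NaCl (15.7% of all probe sets) and 31 in NaCl/oxaliplatin (16.4%). Leaving out rat 22 of D5W/NaCl brought the 9 to 3. The members called lower after both orders of oxaliplatin were Cenpp, Ncapd2, Plk1, Bub1b, Cenpm, Ncaph2, Ncapd3 and Cenpn, which include 3 of the 5 condensin genes and 3 of the 12 CENP genes.

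Plk1 showed the step between the drugs at 6 h. It read 9.99, 9.53, 9.65 and 10.19 in topotecan/D5W rats and 11.10, 11.09, 11.07 and 11.15 in NaCl/oxaliplatin rats, against 11.92, 11.66, 11.59 and 11.79 in NaCl/D5W rats. The 3 groups did not overlap, and the differences from vehicle were -1.90 ± 0.15 (SE, limma adjusted p 4.193e-13) and -0.64 ± 0.15 (limma adjusted p 0.0018). Kif23, the motor subunit of the centralspindlin complex of the dividing midzone, was the lowest member after topotecan alone. It read 9.52, 9.14, 9.22 and 9.80 in topotecan/D5W rats, against 11.32, 11.24, 11.37 and 11.53 in NaCl/D5W rats, a difference of -1.95 ± 0.14 (SE, limma adjusted p 4.054e-14) with no overlap. Kif20a, a kinesin of the same midzone, read 10.33, 9.88, 9.93 and 10.66 in topotecan/D5W rats, against 11.71, 11.75, 12.01 and 11.98 in NaCl/D5W rats. Again the groups did not overlap, and the difference was -1.66 ± 0.14 (SE, limma adjusted p 1.374e-12). In NaCl/oxaliplatin rats, at 11.38, 11.53, 11.44 and 11.55, Kif20a was not called (-0.39 ± 0.14, SE, limma adjusted p 0.035).

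Cdk1, the kinase partner of cyclin B, read 11.00, 10.47, 10.75 and 11.09 in topotecan/D5W rats at 6 h, against 12.34, 12.42, 12.32 and 12.41 in NaCl/D5W rats. All treated rats were more than 1 log2 unit lower, and the difference was -1.54 ± 0.12 (SE, limma adjusted p 7.952e-14). Aurka, the Aurora kinase of the spindle poles, read 9.22, 9.32, 8.98 and 9.46 in D5W/topotecan rats and 10.02, 10.23 and 9.95 in oxaliplatin/NaCl rats, against 10.26, 10.33, 10.39 and 10.53 in D5W/NaCl rats. Neither treated group overlapped vehicle. Only the fall after topotecan passed the test, at -1.13 ± 0.10 (SE, limma adjusted p 1.094e-11) against -0.31 ± 0.11 after oxaliplatin (limma adjusted p 0.035). Hmmr, a spindle protein first described as a hyaluronan receptor, read 9.47, 9.36, 9.28 and 9.63 in D5W/topotecan rats, against 10.53, 10.40, 10.73 and 10.79 in D5W/NaCl rats, a difference of -1.17 ± 0.15 (SE, limma adjusted p 7.066e-08) with no overlap.

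**Figure D2:**
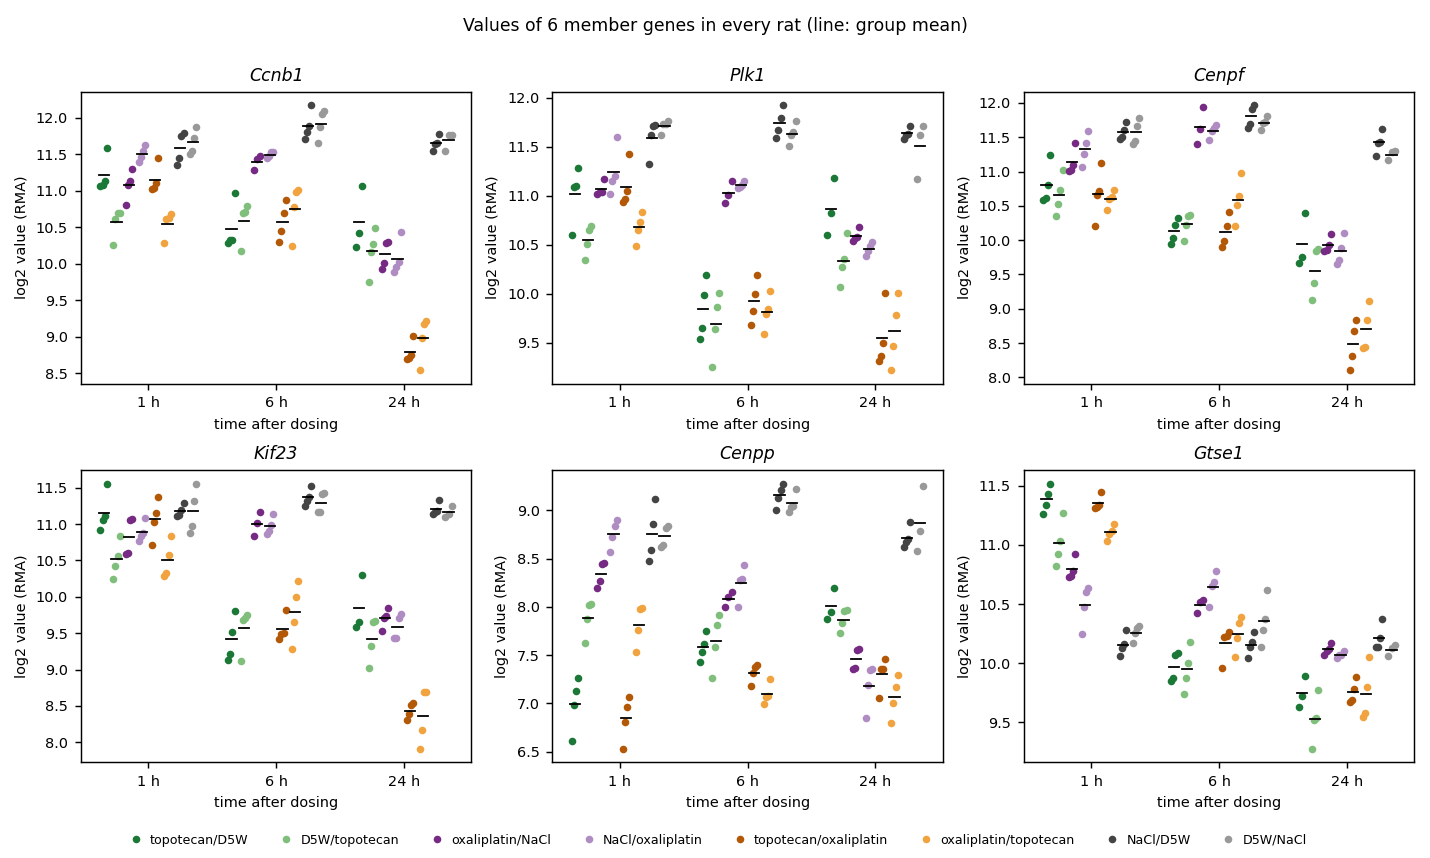
Log2 values (RMA) of 6 member genes in every rat by time after dosing, 1 point a rat, with a line at each group mean and the 6 treatments left of the 2 vehicles at each time. At 24 h Ccnb1 lay between 8.54 and 9.22 in the 8 rats given both drugs, below all rats given 1 drug and all vehicle rats.

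At 24 h all 6 treatments had lowered the mitotic genes, and the combination had lowered them most. The counts lower were 44 of 46 in topotecan/D5W (background 17.3%), 44 in D5W/topotecan (18.3%), 42 in oxaliplatin/NaCl (26.4%), 43 in NaCl/oxaliplatin (30.2%), 44 in topotecan/oxaliplatin (35.2%) and 44 in oxaliplatin/topotecan (33.3%). The median member was 1.91-fold and 2.33-fold lower after topotecan alone (given first and second), 2.2-fold and 2.33-fold lower after oxaliplatin alone, and 3.9-fold and 4.38-fold lower after topotecan/oxaliplatin and oxaliplatin/topotecan. Beside these, the median over all probe sets was -0.10 and -0.11 on the log2 scale in the 2 combinations. Every treated rat lay below every vehicle rat for 45 members in topotecan/D5W (23% of all probe sets), 44 in D5W/topotecan (21%), 43 in oxaliplatin/NaCl (31.7%), 45 in NaCl/oxaliplatin (34.9%), 45 in topotecan/oxaliplatin (37%) and 44 in oxaliplatin/topotecan (36.4%).

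Ccnb1, the cyclin B that activates Cdk1, was lowest in the combination. It read 8.70, 9.01, 8.70 and 8.75 in topotecan/oxaliplatin rats, 10.23, 11.06 and 10.43 in topotecan/D5W rats and 10.02, 9.88, 10.43 and 9.95 in NaCl/oxaliplatin rats, against 11.65, 11.64, 11.78 and 11.55 in NaCl/D5W rats. The combination lay below both single drugs and these below vehicle, with no overlap at either step. The differences from vehicle were -2.86 ± 0.16 (SE, limma adjusted p 3.491e-18), -1.08 ± 0.17 (limma adjusted p 1.686e-06) and -1.58 ± 0.16 (limma adjusted p 4.519e-11). Cdc20, the activator of the complex that ends metaphase, changed less after a single drug. It read 10.04, 9.61, 9.78 and 8.97 in oxaliplatin/topotecan rats, 10.75, 10.65, 10.77 and 10.73 in D5W/topotecan rats and 10.66, 10.68, 10.74 and 10.74 in oxaliplatin/NaCl rats, against 11.49, 11.63 and 11.17 in D5W/NaCl rats. The single drugs differed from vehicle by -0.70 ± 0.15 and -0.72 ± 0.15, and the combination by -1.83 ± 0.15 (SE, largest limma adjusted p 0.0001794).

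Ect2, the exchange factor that directs the cleavage furrow, had the largest fold change of all members. It read 8.10, 8.15, 8.05 and 7.82 in topotecan/oxaliplatin rats, 9.10, 10.07 and 9.40 in topotecan/D5W rats and 9.71, 9.12, 9.74 and 9.56 in NaCl/oxaliplatin rats, against 10.94, 10.96, 11.12 and 11.01 in NaCl/D5W rats. The 4 rats given both drugs were the lowest of the 15, and the difference from vehicle was -2.98 ± 0.16 (SE, limma adjusted p 3.745e-18). Cenpf, a kinetochore protein that accumulates in G2, followed closely. It read 8.83, 8.68, 8.31 and 8.10 in topotecan/oxaliplatin rats, against 11.44, 11.41, 11.62 and 11.23 in NaCl/D5W rats, a difference of -2.94 ± 0.17 (SE, limma adjusted p 1.134e-17) without overlap. Kif23 read 8.69, 8.17, 8.70 and 7.91 in oxaliplatin/topotecan rats, against 11.14, 11.25 and 11.10 in D5W/NaCl rats, a difference of -2.80 ± 0.20 (SE, limma adjusted p 2.3e-14), again without overlap. Ncapd2, a condensin subunit, was lower by similar amounts in both combinations, at -2.56 ± 0.15 and -2.76 ± 0.16 (SE, limma adjusted p 2.443e-17 and 1.253e-16).

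After a single drug the deepest fall at 24 h was that of Ect2 for topotecan (-1.91 ± 0.23, SE, in D5W/topotecan, limma adjusted p 8.316e-09) and of Cenpi for oxaliplatin. Cenpi, which helps to build the inner kinetochore, read 8.65, 8.33, 8.43 and 8.48 in NaCl/oxaliplatin rats, against 10.13, 10.31, 10.56 and 10.26 in NaCl/D5W rats. The groups were more than 1 log2 unit apart, and the difference was -1.84 ± 0.13 (SE, limma adjusted p 1.832e-14). Birc5 (survivin), which guides Aurora B to the centromere, read 9.92, 9.97, 10.07 and 9.71 in NaCl/oxaliplatin rats, against 11.41, 11.48, 11.50 and 11.33 in NaCl/D5W rats, a difference of -1.51 ± 0.13 (SE, limma adjusted p 3.154e-12) without overlap. Bub1b, a kinase-like protein of the spindle checkpoint, read 8.83, 8.49, 8.94 and 8.62 in NaCl/oxaliplatin rats, against 9.99, 9.92, 10.12 and 10.17 in NaCl/D5W rats, a difference of -1.33 ± 0.13 (SE, limma adjusted p 5.014e-11) without overlap. Cenpe, a kinesin of the kinetochore, read 7.63, 8.23 and 7.78 in topotecan/D5W rats, against 9.00, 9.14, 9.32 and 9.04 in NaCl/D5W rats. The difference was -1.24 ± 0.16 (SE, limma adjusted p 8.12e-08), and the middle rat of the list, at 8.23, was nearest to vehicle. Kif11, the motor that separates the spindle poles, read 9.09, 9.90 and 9.20 in topotecan/D5W rats, against 10.57, 10.59, 10.78 and 10.51 in NaCl/D5W rats, and here the same rat was nearest to vehicle. Its difference was -1.22 ± 0.16 (SE, limma adjusted p 6.102e-08).

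All 5 cyclin B/Cdk1, Plk1 and Cdc20 genes, all 3 Aurora and passenger genes, all 5 kinetochore and checkpoint genes, all 5 condensin genes and all 10 mitotic kinesins were lower in every treatment at 24 h. The exceptions were in the remaining groups. Of the 12 CENP genes 9 or 10 were lower, and of the 6 spindle assembly and cytokinesis genes 5 or 6, the exception there being Gtse1 after oxaliplatin alone. Cenpb, which binds centromeric satellite DNA, was lower in topotecan/D5W only (-0.47, limma adjusted p 0.0051, against -0.37 to -0.03 elsewhere). Cenpx, which also serves DNA repair with Fanconi anaemia proteins, was called in no treatment at 24 h, with differences of -0.28 to 0.03. It read 9.21, 9.43, 9.26 and 9.36 in topotecan/oxaliplatin rats, against 9.57, 9.67, 9.41 and 9.43 in NaCl/D5W rats, with overlap. Cenpt in topotecan/D5W (-1.07 ± 0.36, SE, limma adjusted p 0.013) and Cenpu in oxaliplatin/NaCl were not called.

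**Figure D3:**
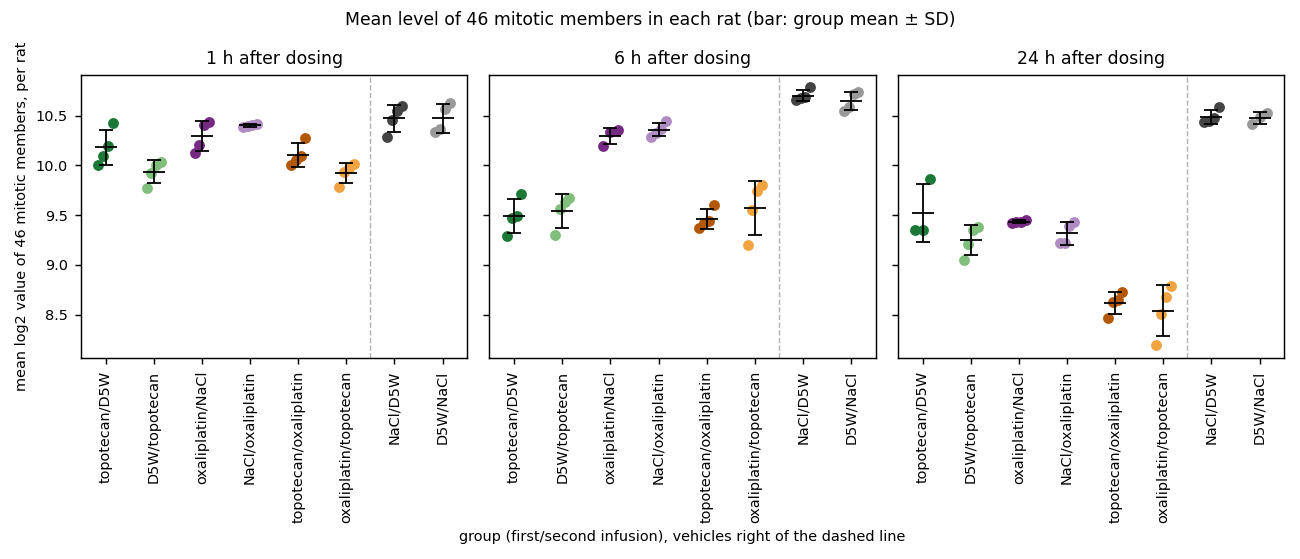
Mean log2 value of the 46 mitotic members in each rat (points) at 1, 6 and 24 h, with the group mean and SD (bar), the 6 treatments left of the dashed line and the 2 vehicles right of it. At 24 h the rats given both drugs lay between 8.20 and 8.78, those given 1 drug between 9.05 and 9.86 and vehicle rats between 10.41 and 10.58.

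Averaged over the 46 mitotic members within a rat, the level at 24 h was 8.62 ± 0.11 in topotecan/oxaliplatin and 8.54 ± 0.26 in oxaliplatin/topotecan (SD, n = 4 each). It was 9.52 ± 0.29 in topotecan/D5W (SD, n = 3), 9.25 ± 0.15 in D5W/topotecan, 9.43 ± 0.02 in oxaliplatin/NaCl and 9.32 ± 0.11 in NaCl/oxaliplatin (SD, n = 4 each). Vehicle means were 10.48 ± 0.07 in NaCl/D5W and 10.48 ± 0.06 in D5W/NaCl. The combination, single-drug and vehicle rats thus formed 3 bands that did not touch. At 6 h the bands were set by topotecan: the 4 groups given it averaged 9.46 to 9.58, the 2 groups given oxaliplatin alone 10.30 and 10.36, and vehicles 10.65 and 10.70. Rats given oxaliplatin alone, at 10.20 to 10.44, all lay below the vehicle rats, at 10.55 to 10.78.

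To compare times, the effect at the earlier time was subtracted from the effect at the later time, each effect being a difference from vehicle. From 1 to 6 h the effect deepened in 36 mitotic members in topotecan/D5W (background 10.5% lower), 25 in D5W/topotecan (13.9%), 36 in topotecan/oxaliplatin (9.36%) and 21 in oxaliplatin/topotecan (11.5%). In the last of these Ect2 went the other way, its deficit shrinking by 1.02 ± 0.30 (SE, limma adjusted p 0.0060, background 15.4% higher). In NaCl/oxaliplatin only Cenpp deepened (-0.91 ± 0.19, SE, limma adjusted p 0.0015, background 2.98%), and in oxaliplatin/NaCl 0 members did in limma (background 0.989%, 10 lower at an unadjusted p under 0.05). From 6 to 24 h the effect deepened in the groups given oxaliplatin, namely in 16 members in oxaliplatin/NaCl (background 3.73%), 35 in NaCl/oxaliplatin (10.9%), 22 in topotecan/oxaliplatin (10.7%) and 28 in oxaliplatin/topotecan (10.2%).

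After topotecan alone the later interval moved few mitotic members, in both directions, in counts not far from their backgrounds. In topotecan/D5W 7 members came back towards vehicle between 6 and 24 h and 2 fell further (background 10.2% higher and 6.1% lower). The largest returns were those of Plk1 (1.13 ± 0.22, SE, limma adjusted p 0.0002037) and Cdc20 (1.12 ± 0.18, SE, limma adjusted p 1.447e-05), followed by Kif22, Cenpp, Depdc1b, Kif20a and Cdk1 at 0.72 to 0.87. The inner kinetochore genes Cenpq (-0.77) and Cenpi (-0.67) fell further. In D5W/topotecan only Plk1 (0.77) and Cdc20 (0.81) came back (background 7.07%), and Cenpq (-1.26), Ect2 (-1.15), Cenpi (-0.92), Cenpk (-0.87) and Kif18a (-0.78) fell further (background 5.6%). In topotecan/oxaliplatin the change in Plk1 between 6 and 24 h was -0.27 ± 0.21 (SE, limma adjusted p 0.34).

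Set directly against a single drug at 24 h, the combination was lower in most mitotic members. Topotecan/oxaliplatin was lower than topotecan/D5W in 40 of 46 (background 18%, median -0.89) and lower than NaCl/oxaliplatin in 36 (background 8.43%, median -0.72). Oxaliplatin/topotecan was lower than oxaliplatin/NaCl in 38 (background 4.91%, median -0.99) and lower than D5W/topotecan in 34 (background 15.4%, median -0.75). The widest gaps were those of Ccnb1 (-1.78 ± 0.17, SE, limma adjusted p 3.165e-10), Ect2 (-1.49) and Cenpf (-1.46) between topotecan/oxaliplatin and topotecan/D5W, and of Ect2 (-1.54), Ccnb2 (-1.42) and Racgap1 (-1.36) between oxaliplatin/topotecan and oxaliplatin/NaCl. Racgap1 is the partner of Kif23 in centralspindlin.

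At 1 and 6 h the combination was hardly distinguishable from topotecan alone. Topotecan/oxaliplatin minus topotecan/D5W gave 0 mitotic members in limma at 1 h (0 at an unadjusted p under 0.05; background 0%) and 0 at 6 h (2 higher and 1 lower unadjusted; background 0.16% higher and 1.16% lower). Oxaliplatin/topotecan minus D5W/topotecan gave 0 at 1 h (0 unadjusted; background 0.0559% higher and 0.184% lower) and 1 at 6 h, Cenpp (-0.55 ± 0.13, SE, limma adjusted p 0.0042, background 3.79%). Against oxaliplatin alone, topotecan/oxaliplatin was lower than NaCl/oxaliplatin in 16 members at 1 h (background 29.2%) and in 43 at 6 h (12.6%), and oxaliplatin/topotecan was lower than oxaliplatin/NaCl in 15 at 1 h (22.4%) and 33 at 6 h (11.1%). The counts of 16 and 15 at 1 h stand near their backgrounds.

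Whether the place of a drug in the sequence mattered was tested as the effect of the drug given first minus its effect given second, each over its own vehicle. A difference of order is also one of the time since the drug was infused, and the design does not separate them. At 1 h the sample codes of topotecan/D5W match those of the vehicles and those of D5W/topotecan do not. For topotecan alone the codes are therefore not separated from order either, while both combinations share theirs. For topotecan alone at 1 h, 8 members were less reduced or more raised when topotecan came first and 4 were lower (background 4.84% and 7.33%). The count of 4 stands at about its background. Kif18a, a kinesin that steadies chromosomes at the spindle equator, showed the largest difference. It read 9.53, 9.34, 9.83 and 9.16 in topotecan/D5W rats, against 9.11, 9.27, 8.95 and 9.17 in NaCl/D5W rats, and 8.41, 8.47, 8.66 and 8.15 in D5W/topotecan rats, against 9.02, 9.10, 9.43 and 9.49 in D5W/NaCl rats. The first pair overlapped, and in the second all treated rats were lower, so the effects were 0.34 ± 0.12 and -0.83 ± 0.15 and their difference 1.17 ± 0.19 (SE, limma adjusted p 2.643e-06). Ect2 (1.06), Hmmr (0.98), Depdc1b (0.94), Kif14 (0.85), Kif20b (0.80), Aurka (0.67) and Gtse1 (0.48) differed in the same direction. Cenpp (-0.92 ± 0.19, SE, limma adjusted p 0.0001442), Cenpm (-0.51), Ncaph2 (-0.46) and the non-mitotic Aurkaip1 (-0.40) were lower when topotecan came first.

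In the combination at 1 h, Kif18a (1.16), Depdc1b (1.05), Ect2 (0.97), Hmmr (0.90) and Aurka (0.59) were again less reduced with topotecan first and Cenpp (-1.0 ± 0.19, SE, limma adjusted p 4.93e-05) lower (background 5.09% and 4.76%). A single lower member is no more than its background gives. Hmmr read 10.07, 10.30, 10.58 and 10.48 in topotecan/oxaliplatin rats, against 10.10, 10.38, 10.18 and 10.47 in NaCl/D5W rats, and 9.53, 9.31, 9.66 and 9.87 in oxaliplatin/topotecan rats, against 10.21, 10.23, 10.62 and 10.59 in D5W/NaCl rats. Only with topotecan second did the treated rats lie below vehicle. Order changed 0 members in limma at 6 and 24 h and 0 for oxaliplatin alone at 1 h, where the background was 0% except for 0.00798% higher in the combination at 6 h. At an unadjusted p under 0.05 between 0 and 6 mitotic members were reached in those 7 comparisons, and with a trended and robust prior the calls over all 9 comparisons of order numbered 17 in place of 18.

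**Figure D4:**
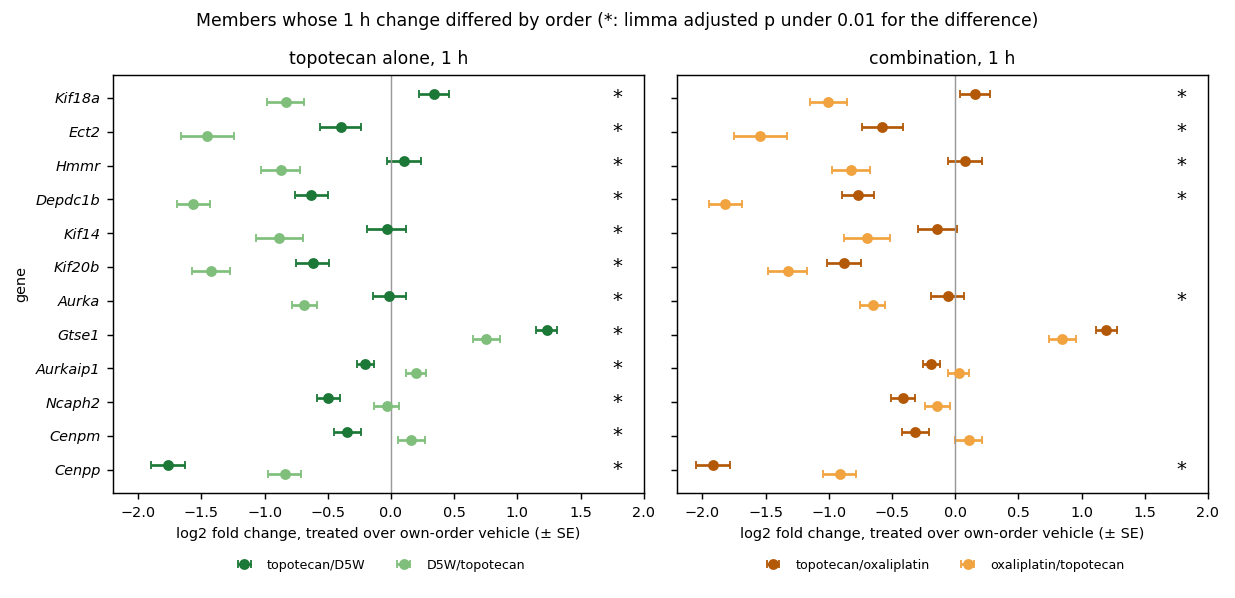
Log2 fold change over own-order vehicle at 1 h (± SE) of the 12 members whose change differed by order for topotecan alone (left) and of the same 12 in the combination (right), dark points for topotecan first and light points for topotecan second. A star marks an adjusted p under 0.01 in limma for the difference, reached by 12 members on the left and 6 on the right.

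Of the 7 non-mitotic members, 1 to 3 were lower at 24 h in each treatment, near the backgrounds given above for 24 h. At 1 h 2 were lower in topotecan/D5W (background 26%, median -0.20) and 3 in D5W/topotecan (19.5%, median -0.31). In topotecan/oxaliplatin 4 were lower at 1 h (32.9%, median -0.32) and in oxaliplatin/topotecan 4 (27.6%, median -0.62). Kif13a, an endosomal transport motor, read 6.11, 5.89, 5.78 and 6.14 in topotecan/oxaliplatin rats at 1 h, against 7.35, 7.62, 7.57 and 7.59 in NaCl/D5W rats, more than 1 log2 unit apart. The difference was -1.55 ± 0.14 (SE, limma adjusted p 6.042e-12), and at 24 h it was -0.07 ± 0.14 (limma adjusted p 0.68). At 24 h Kif13a was lower only in oxaliplatin/topotecan (-0.63, limma adjusted p 0.0016). After topotecan/D5W at 24 h, where it had the highest fold change of all members, Kif13a read 7.80, 7.45 and 7.17 against 7.09, 6.99, 7.03 and 7.40 in NaCl/D5W rats, with overlap (0.35 ± 0.15, SE, limma adjusted p 0.061). Kif16b, a motor of early endosomes, was likewise lower at 1 h in the 4 groups given topotecan, by 0.62 to 0.90. It was not called at 24 h, when it read 6.98, 6.97, 7.21 and 7.11 in NaCl/oxaliplatin rats, against 6.64, 6.75, 6.80 and 6.84 in NaCl/D5W rats (0.31 ± 0.11, SE, limma adjusted p 0.011).

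Kif2a was the only member higher at 24 h. It read 10.91, 11.12, 10.73 and 11.08 in oxaliplatin/topotecan rats, against 10.50, 10.47 and 10.22 in D5W/NaCl rats, without overlap (0.57 ± 0.13, SE, limma adjusted p 0.0001899). In topotecan/oxaliplatin the difference was 0.38 ± 0.12 (SE, limma adjusted p 0.0058), and its background, like that of oxaliplatin/topotecan, was high, at 25.9% and 21.8% of all probe sets higher. At 6 h, where Kif2a had the highest fold change of all members after topotecan/oxaliplatin, it read 11.06, 10.59, 11.00 and 10.80 in topotecan/oxaliplatin rats, against 10.64, 10.42, 10.56 and 10.81 in NaCl/D5W rats, with overlap (0.26 ± 0.12, SE, limma adjusted p 0.068).

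Kif3a, a subunit of the kinesin of ciliary transport, was the only non-mitotic member lower in all 6 treatments at 24 h, by 0.81 to 1.13. It read 7.11, 6.97, 7.04 and 6.99 in topotecan/oxaliplatin rats, against 7.64, 8.04, 7.93 and 7.76 in NaCl/D5W rats, without overlap (-0.81 ± 0.13, SE, limma adjusted p 1.192e-06). Cenpj was lower at 24 h in NaCl/oxaliplatin (-0.47) and Aurkaip1 in oxaliplatin/topotecan (-0.33), and Kif5b, the motor of conventional transport, changed by -0.07 to 0.09 with no call.

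At 1 h after topotecan, longer genes were lower than shorter ones. Spans, from annotated start to end in GRCr8, ran up to 279.5 kb for Kif16b, 182.5 kb for Kif13a and 175.2 kb for Cenpp. In D5W/topotecan at 1 h the 19 members spanning 50 kb or more had a median log2 fold change of -0.88 and the 34 shorter ones of -0.32. Spearman's rho between span and change was -0.57 over the 53 members and -0.62 over 7738 other genes, a description over genes measured on the same arrays. In the other groups given topotecan rho lay between -0.40 and -0.59 over the members and between -0.41 and -0.60 over the other genes. The members thus shared this relation with the other genes. After oxaliplatin alone at 1 h rho was -0.06 in oxaliplatin/NaCl and -0.17 in NaCl/oxaliplatin over the members, and -0.35 and -0.25 over the other genes. At 24 h rho over the members was 0.05 to 0.14 in the 6 treatments.

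**Figure D5:**
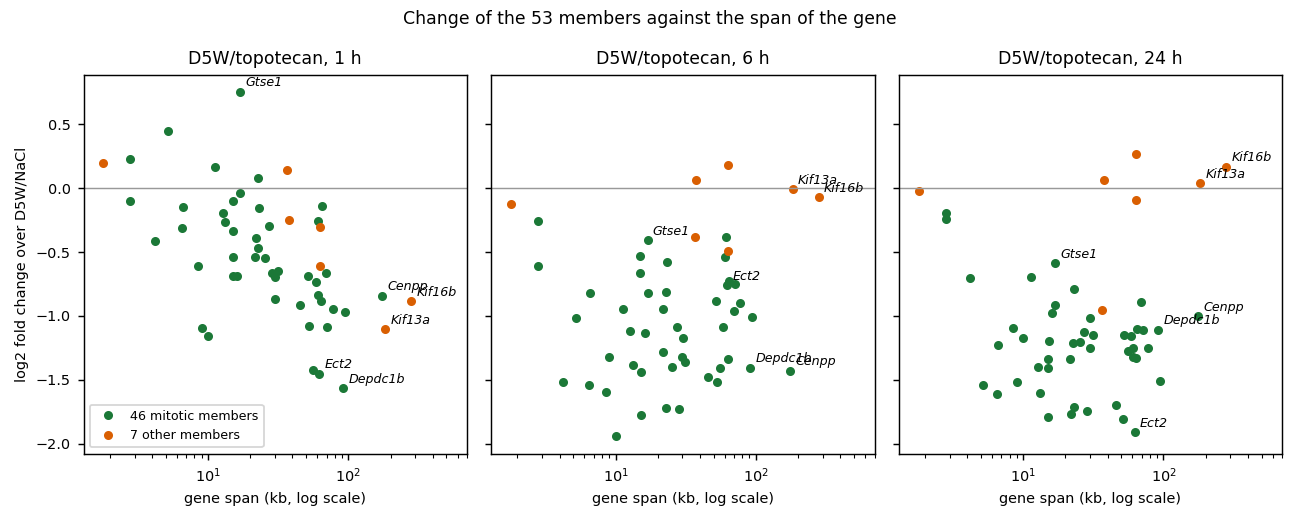
Log2 fold change over D5W/NaCl in D5W/topotecan rats against the span of the gene (kb, log scale) for the 53 members at 1, 6 and 24 h, with 46 mitotic members in green and 7 others in orange. Longer genes lie lower at 1 h (rho -0.57), and at 6 and 24 h the mitotic members lie below 0 at short and long spans alike.

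The mitotic members also moved together among rats of the same group. With each value taken as its deviation from the mean of its group and time, the median correlation between pairs of the 46 was 0.55 over the 93 arrays. The correlation of a member with the mean of the other mitotic members had a median of 0.75, from -0.20 for Cenpx to 0.93 for Kif22. It exceeded 0.5 in 41 of the 46, and in 3.38% of 7757 other genes. The non-mitotic members had a median of 0.12. All points share arrays and normalization, so these are descriptions. Among 12 members with more than 1 probe set, 0 of 270 comparisons were called in opposite directions by their probe sets, and the median absolute difference in log2 fold change was 0.14. The largest difference was 0.71, for Cdc20 in oxaliplatin/topotecan at 1 h.

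Other genes of mitosis, from a list of 105 measured genes that excludes the members, went the same way. At 6 h 88 were lower in topotecan/D5W (background 25.6%), 82 in D5W/topotecan (20.4%), 89 in topotecan/oxaliplatin (27.6%) and 86 in oxaliplatin/topotecan (27.5%). After oxaliplatin alone 19 were lower in oxaliplatin/NaCl (7.25%) and 26 in NaCl/oxaliplatin (9.69%). At 24 h between 77 and 95 were lower in the 6 treatments (backgrounds 17.3% to 35.2%). Called in all 6 treatments at 24 h were 73, of which Ska1 and Sgo1, of the spindle attachment and of cohesin protection, and the cyclin gene Ccna2 had the lowest means over treatments (-2.22, -2.01 and -1.92). Zw10 (-0.48), Ensa (-0.44) and Nek6 (0.87, higher) had the highest. At 6 h the 16 genes called in all 6 treatments ran from Cit (-1.34), Mybl2 (-1.30), which encodes a transcription factor of G2/M genes, and Mis18a (-1.24) up to Rcc1 (-0.60), Smc3 (-0.58) and Rad21 (-0.55). At 1 h 47 of the 105 were lower in topotecan/D5W (background 26%), 45 in D5W/topotecan (19.5%), 56 in topotecan/oxaliplatin (32.9%) and 51 in oxaliplatin/topotecan (27.6%). At most 4 treatments called a gene at that time. The 28 so called ran from Stag1 (-1.43), Ckap5 (-0.94) and Pds5b (-0.77) up to Anapc4 (-0.33), Cdc16 (-0.25) and Psrc1 (0.42). The share of all probe sets called in as many treatments was not counted.

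Genes of DNA replication, 52 of them measured, were mostly lower after oxaliplatin alone already at 6 h. There 43 of 52 were lower in oxaliplatin/NaCl (background 7.25%) and 38 in NaCl/oxaliplatin (9.69%), with medians of -0.59 and -0.45. Beside these stand 9 and 12 of the 46 mitotic members (medians -0.30 and -0.35, over all probe sets 0.02 and 0.00). Whether the lists differ was not tested. After topotecan at 6 h between 48 and 50 of 52 were lower (backgrounds 20.4% to 27.6%), and at 24 h between 42 and 51 in the 6 treatments (17.3% to 35.2%). At 1 h 34 were lower in topotecan/D5W (background 26%, median -0.42) and 37 in topotecan/oxaliplatin (32.9%, median -0.48). In D5W/topotecan 11 were lower at 1 h (19.5%, median -0.12) and in oxaliplatin/topotecan 16 (27.6%, median -0.17).

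Markers of red cell precursors were also lower at 24 h. By the median, topotecan/oxaliplatin lay below both single drugs of its order of solvents. Oxaliplatin/topotecan lay below oxaliplatin/NaCl but not below D5W/topotecan, unlike in the mitotic members. These differences between treatments were not tested for the markers. Of the 15 erythroid markers measured, 13 were lower in each of the 6 treatments (backgrounds 17.3% to 35.2%). The median log2 fold change of the 15 was -1.96 in topotecan/D5W, -2.32 in D5W/topotecan, -1.18 in oxaliplatin/NaCl and -1.35 in NaCl/oxaliplatin. In the combinations it was -2.12 in topotecan/oxaliplatin and -2.02 in oxaliplatin/topotecan. Their mean ranged over the rats from 10.33 to 11.12 in topotecan/oxaliplatin, 10.79 to 11.66 in topotecan/D5W and 11.39 to 11.56 in NaCl/oxaliplatin, against 12.91 to 13.04 in NaCl/D5W. It ranged from 10.49 to 11.24 in oxaliplatin/topotecan, 10.44 to 11.12 in D5W/topotecan and 11.31 to 11.58 in oxaliplatin/NaCl, against 12.72 to 13.08 in D5W/NaCl. At 6 h, when the mitotic members were already lower after topotecan, 7 of the 15 were lower in topotecan/D5W (background 25.6%) and 2 in D5W/topotecan (20.4%). In topotecan/oxaliplatin 6 were lower (27.6%) and in oxaliplatin/topotecan 5 (27.5%). Means were 12.11 to 12.64 in single rats of these 4 groups. The 2 in D5W/topotecan are no more than the background gives. At 1 h at most 2 were lower, likewise no more than the backgrounds given above for 1 h. Of the 3 measured markers of granulocyte precursors the mean was 10.65 to 11.30 in rats given both drugs at 24 h, against 12.50 to 12.64 in vehicle rats. A single marker of the 3 was more than 2-fold lower, with the 3 ranging from -4.06 to 0.04 in topotecan/oxaliplatin and from -4.56 to 0.08 in oxaliplatin/topotecan on the log2 fold scale. After oxaliplatin alone 2 of the 3 were higher and 1 was lower at 24 h. In topotecan/oxaliplatin at 24 h 9 of 9 macrophage, 7 of 9 T and NK cell and 5 of 6 endothelial markers were higher (background 25.9%). In oxaliplatin/topotecan 8, 6 and 4 of them were higher (background 21.8%). The rise was thus not particular to the macrophage markers, and 1 T and NK cell marker was lower in each combination. The part of these cells in the changes of the mitotic genes was not tested.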

How the data were processed

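Gene expression was measured in femoral bone marrow of 93 rats, 1 Affymetrix rat genome array per rat. The deposited values are log2 signals that the authors made with RMA, followed by their filter for probe sets whose probes vary together, and probe sets removed by it are not analysed here. The table holds 12560 probe sets, of which 28 controls were left out. Of the 12532 tested, 10002 had 1 annotated symbol, 292 several and 2238 none. Values ran from 3.94 to 15.4 and array medians from 8.79 to 9.3. The small number of rats, 3 or 4 a group, limits the precision. The tests were limma's (version 3.58.1, R 4.3.3), with 1 fit for each order of solvents over the 3 times. For order, the effects over vehicle of a drug given first and second were subtracted, with the 8 groups in 1 fit. Calls were at a Benjamini-Hochberg adjusted p under 0.01 over all probe sets, with a second count at a fold above 2. All fits were tested on simulated data. Every gene selected by the naming rule could be named. Values in each rat are given for fixed mitotic genes and for the members with the lowest and highest change by time and drug class. Members, gene lists and rules were chosen with earlier results of these data known. Promoter sequences and gene spans came from RefSeq (GRCr8). Alternatives covered the fit, the prior, normalization, probe sets, vehicle, animal set, muscle-rich arrays, thresholds and each rat left out.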

Additional observations from a re-analysis of the deposited data

Results flagged for a closer look

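In 294 groups of 4 rats (14 measures in 21 groups), 13 held a rat that stood apart from the other 3 by Dixon's test, and chance gives about 5% of groups. Rat 31 of topotecan/D5W at 1 h was high in Ccnb1 (11.59, others 11.07 to 11.14), Kif11 (10.66, others 10.25 to 10.30) and Hmmr (10.79, others 10.23 to 10.29). Rat 93 of D5W/topotecan at 6 h was low in Ccnb1 (10.17, others 10.69 to 10.79) and Kif23 (9.12, others 9.68 to 9.75). Ccnb1 was also high in rat 34 of topotecan/D5W at 6 h (10.97, others 10.28 to 10.33) and rat 54 of topotecan/oxaliplatin at 24 h (9.01, others 8.70 to 8.75). Kif20a was low in rat 92 of D5W/topotecan at 1 h (10.80, others 11.04 to 11.08) and high in rat 73 of NaCl/oxaliplatin at 1 h (11.59, others 11.28 to 11.31). Kif11 was low in rat 90 of D5W/topotecan at 24 h (8.68, others 9.15 to 9.23). Single high rats were seen for Plk1 in oxaliplatin/NaCl at 1 h (rat 44, 11.17), for Aurka in D5W/NaCl at 1 h (rat 19, 10.39) and for Hmmr in NaCl/D5W at 24 h (rat 11, 10.46).

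The change at 1 h differed by order, topotecan first minus second, in 12 members for topotecan alone: Kif18a 1.17, Ect2 1.06, Hmmr 0.98, Depdc1b 0.94, Kif14 0.85, Kif20b 0.80, Aurka 0.67, Gtse1 0.48, Aurkaip1 -0.40, Ncaph2 -0.46, Cenpm -0.51 and Cenpp -0.92 on the log2 scale. In the combination it differed in 6 members, Kif18a 1.16, Depdc1b 1.05, Ect2 0.97, Hmmr 0.90, Aurka 0.59 and Cenpp -1.0.

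The effect also differed between times, counted over the 46 mitotic members in either direction. Between 1 and 6 h it changed in 36 members in topotecan/D5W, 25 in D5W/topotecan, 1 in NaCl/oxaliplatin, 36 in topotecan/oxaliplatin and 22 in oxaliplatin/topotecan. Between 6 and 24 h it changed in 9, 7 and 16 members in topotecan/D5W, D5W/topotecan and oxaliplatin/NaCl, and in 35, 22 and 28 in NaCl/oxaliplatin, topotecan/oxaliplatin and oxaliplatin/topotecan.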

How the results depend on the processing

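Refits under 13 other settings and with each of the 93 rats left out turned no result round. Counts here are over all 53 members. Requiring a fold above 2 left 2 lower in topotecan/D5W, 8 in D5W/topotecan, 0 in oxaliplatin/NaCl, 2 in topotecan/oxaliplatin and 10 in oxaliplatin/topotecan at 1 h, 27 in D5W/topotecan, 0 in oxaliplatin/NaCl, 0 in NaCl/oxaliplatin and 28 in oxaliplatin/topotecan at 6 h, and 19 in topotecan/D5W at 24 h. In oxaliplatin/NaCl the count at 1 h, 1 as reported, was 0 after renewed quantile normalization, 5 against both vehicles and 4 at an adjusted p under 0.05 in limma, and 0 to 1 with a rat left out. At 6 h, 9 as reported, it was 4 with 1 time per fit, 16 against both vehicles, 17 at an adjusted p under 0.05 in limma, and 3 to 9 with a rat left out (3 without D5W/NaCl rat 22). In NaCl/oxaliplatin at 6 h 24 members passed an adjusted p under 0.05 in limma. Renewed quantile normalization gave 17 in topotecan/oxaliplatin at 1 h, with medians of -1.05 in oxaliplatin/NaCl (24 h) and -0.47 in oxaliplatin/topotecan (1 h).

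With the lower-numbered animals of each group alone (2 a group at most), counts were 18 in D5W/topotecan and 0 in oxaliplatin/NaCl at 1 h, 7 in NaCl/oxaliplatin and 3 in oxaliplatin/NaCl at 6 h, and medians were -0.38 in D5W/topotecan, -0.16 in NaCl/oxaliplatin and -0.56 in topotecan/oxaliplatin at 1 h, and -1.90 in oxaliplatin/topotecan and -1.86 in topotecan/oxaliplatin at 24 h. With the higher-numbered animals alone, counts were 0 in oxaliplatin/NaCl, 3 in topotecan/D5W and 4 in topotecan/oxaliplatin at 1 h, and 1 in NaCl/oxaliplatin and 4 in oxaliplatin/NaCl at 6 h, and medians were -0.72 in D5W/topotecan at 1 h, -1.28 in D5W/topotecan at 6 h, and -0.40 (6 h) and -1.07 (24 h) in oxaliplatin/NaCl. These fits held fewer rats. Leaving out a rat moved the median at 24 h between -1.165 and -1.092 in oxaliplatin/NaCl and between -2.213 and -1.942 in oxaliplatin/topotecan. The cause of the other moves was not tested. Members whose effect differed by order numbered 13 to 20 in all with a rat left out, against 18. No paired analysis was possible because no rat number is shared between groups. With the animal set (lower or higher numbers) as a block in limma, counts lower stayed within 1.5 times of those reported, at 10 in oxaliplatin/NaCl and 14 in NaCl/oxaliplatin at 6 h. At 1 h the mean over the 46 mitotic members was 10.13 and 10.21 in the lower set and 10.40 and 10.44 in the higher set of oxaliplatin/NaCl, against 10.34 and 10.36, and 10.63 and 10.57 in D5W/NaCl. Of single-gene values, 2253 kept their side of the threshold under the 13 settings and 95 lost it. The arrays give no read depth.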
